A study of Mus musculus with 6 samples.

Results

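The genes described here are 10 genes of hedgehog signalling, parathyroid hormone-related protein (PTHrP) signalling and ciliary transport, chosen by symbol from the 44556 genes counted in the parietal bone of newborn mice. They are Ihh, Ptch1, Hhip, Smo, Gli1, Gli2, Gli3, Pthlh, Pth1r and Ift80, and all 10 were found in the count tables and passed the filter on low counts. Bulk RNA-seq libraries of polyadenylated RNA came from 3 OsxCre newborns and 3 OsxCre;Stat3fl/fl newborns on a C57BL/6 background, and the question of the comparison was how deletion of Stat3 in osteoblast precursors altered transcription in the calvaria. Both groups carried the Osx-Cre transgene, in which Osterix (Sp7) regulatory sequence drives Cre recombinase chiefly in osteoblast precursors. The OsxCre;Stat3fl/fl group also carried floxed Stat3 alleles, whereas the OsxCre littermates served as controls. Recombination in each cell type was not measured in these libraries. The study's methods give 3 mice per genotype, and p-values measure the spread between these libraries.

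Hedgehog ligands bind Patched receptors, which releases the membrane protein Smoothened and lets the Gli transcription factors act on their target genes. In vertebrates this takes place in the primary cilium, which is built and supplied by intraflagellar transport (IFT), the movement of protein complexes along the ciliary axoneme. Indian hedgehog is made by chondrocytes that are about to become hypertrophic, acts on the perichondrium and osteoblast precursors, and in growth cartilage forms a feedback loop with PTHrP and its receptor. The parietal bone forms by intramembranous ossification, without a cartilage template, and its osteoblasts carry the PTH/PTHrP receptor.

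The libraries held between 8193651 and 12080044 counts on genes, and every OsxCre;Stat3fl/fl library was smaller than every OsxCre library (highest 8771037 against lowest 9686843). Counts are therefore given as CPM, the count relative to the library size, after scaling by the trimmed mean of M values (TMM). A count of 0 allows up to 3 counts, which is 0.248 to 0.366 CPM of the library totals before TMM scaling. This limit covers counting error only. Stat3 itself was not lower in the libraries labelled OsxCre;Stat3fl/fl, with 150, 135 and 141 CPM in OsxCre libraries 1, 2 and 3 and 153, 155 and 155 CPM in OsxCre;Stat3fl/fl libraries 1, 2 and 3 (log2 fold change 0.12, SE 0.07, edgeR adjusted p = 0.442). These counts cover the whole gene, including exons outside any deletion and cells that Osx-Cre does not reach. OsxCre;Stat3fl/fl below names libraries by that label, and the direction of every difference rests on it. All 10 osteoblast markers were detected, and their summed level was 14400 to 19300 CPM in OsxCre and 13300 to 17000 CPM in the libraries labelled OsxCre;Stat3fl/fl. Skeletal muscle markers summed to 31600 to 33900 CPM and 36300 to 54400 CPM, and hematopoietic markers to 6680 to 9010 CPM and 4000 to 5980 CPM. Both marker sums differed between the groups without overlap, but single markers went both ways in mean. Of 13 muscle markers, 11 were higher and 2 lower, among them Myh4 at 436 and 35.7 CPM. Of 8 hematopoietic markers, 5 were lower, and Cd68, Csf1r and Ctsk were higher. The hemoglobin genes Hbb-bs (3840 and 2430 CPM in mean) and Hba-a1 (2960 and 1520 CPM) were the largest parts of the hematopoietic sum. In bulk tissue, fewer cells of a type and less RNA per cell cannot be told apart.

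None of the 10 genes passed an adjusted p of 0.05 in edgeR's quasi-likelihood test. Among the 15600 genes tested, 0.481% were called lower and 0.776% higher in OsxCre;Stat3fl/fl at that threshold. Pth1r, the receptor for PTH and PTHrP, Gli3, which in its processed form is the main repressor of hedgehog targets, and Ift80, a subunit of the IFT-B complex, were each below every OsxCre library in all 3 OsxCre;Stat3fl/fl libraries. Gli1, an activator and itself a hedgehog target, was above every OsxCre library. These 3 lower genes and 1 higher gene also had an unadjusted edgeR p under 0.05, where 8.34% of all genes tested were lower and 8.03% higher. Groups did not overlap for 12.2% of all genes tested in the lower direction and 10.8% in the higher direction. The median log2 fold change of the 10 genes was 0.08, against -0.00 for all genes tested. The other 6 genes overlapped between the genotypes. The count of 3 lower genes was 1 by DESeq2's Wald test and 1 when OsxCre library 1, 2 or 3 or OsxCre;Stat3fl/fl library 2 was left out. It was 0 with the summed neuron and glia level as a covariate. Pth1r, Gli3 and Ift80 stayed lower in mean in all of these, and Ift80 kept a log2 fold change between -0.37 and -0.35 when single libraries were left out.

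**Figure D1:**
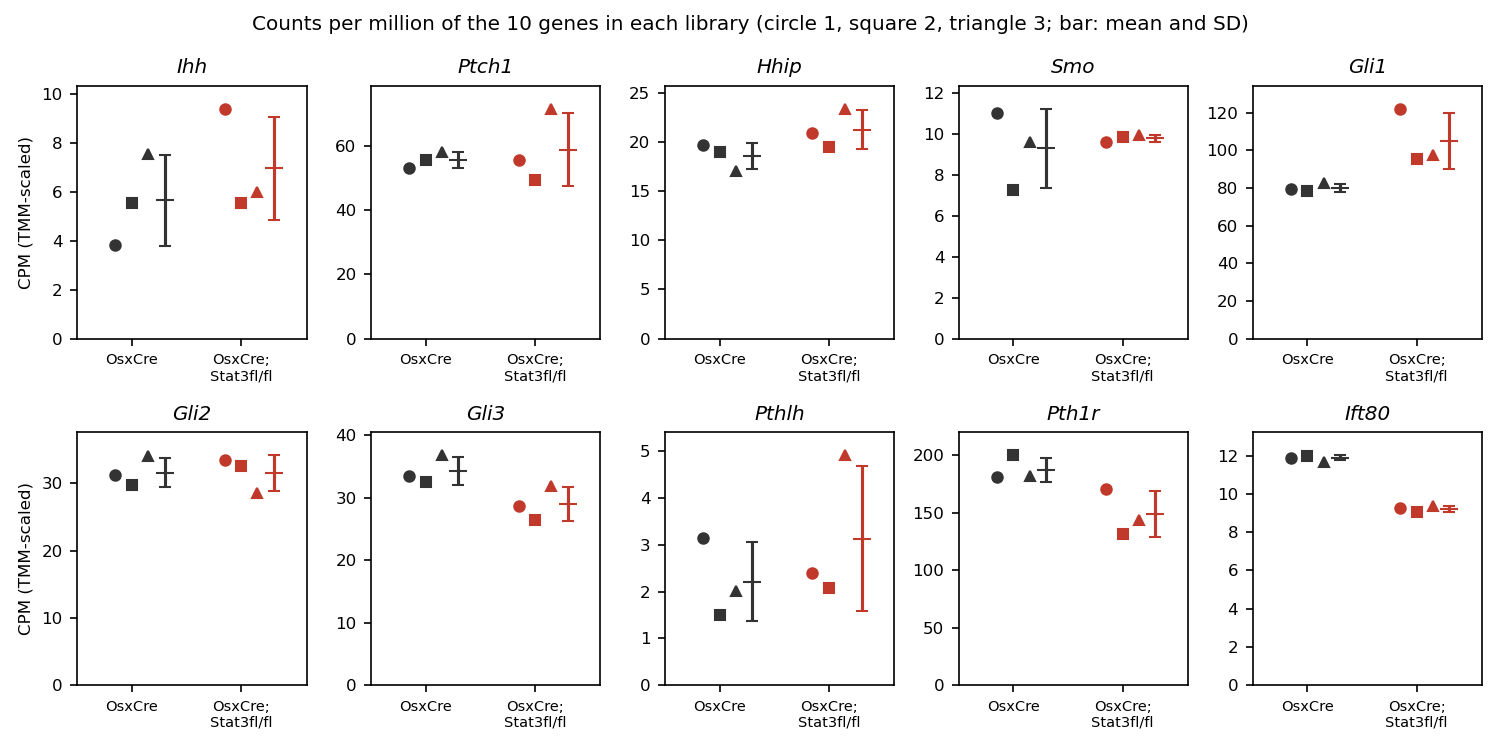
Each panel shows the TMM-scaled CPM of 1 gene (linear axis from 0) in the 3 OsxCre libraries (black) and the 3 OsxCre;Stat3fl/fl libraries (red), with circles, squares and triangles for libraries 1, 2 and 3 and a bar for the mean with its SD. The red points of Gli3, Pth1r and Ift80 lie under all black points and those of Gli1 over them, while the points of the other 6 genes overlap.

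Compared per kilobase of the longest coding transcript, the 10 genes spanned a wide range of levels. Over all 6 libraries Pth1r was at 74.7 ± 11.3 CPM per kilobase (SD, n = 6), followed by Gli1 at 25.2 ± 4.53 and Ptch1 at 13.3 ± 1.76. Gli2, Hhip and Gli3 followed at 4.76, 4.36 and 3.88 CPM per kilobase. Ift80, Ihh and Smo lay at 2.6, 2.55 and 2.52, and Pthlh was lowest at 1.67 CPM per kilobase. The ranges over libraries were apart between Pth1r and Gli1, Gli1 and Ptch1, Ptch1 and Gli2, and Gli3 and Ift80, and overlapped between the other neighbours in this order. These places are over both genotypes together. In OsxCre alone, Smo (2.46) was above Ihh (2.29) and Gli3 (4.2) above Hhip (4.06) in mean CPM per kilobase. In OsxCre;Stat3fl/fl alone, Ihh (2.82) and Smo (2.59) were above Ift80 (2.27). The place of Ift80 also depends on the length taken: with the union of its exons (10171 bases in place of 4064) it was at 1.04 CPM per kilobase, the lowest of the 10.

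**Figure D2:**
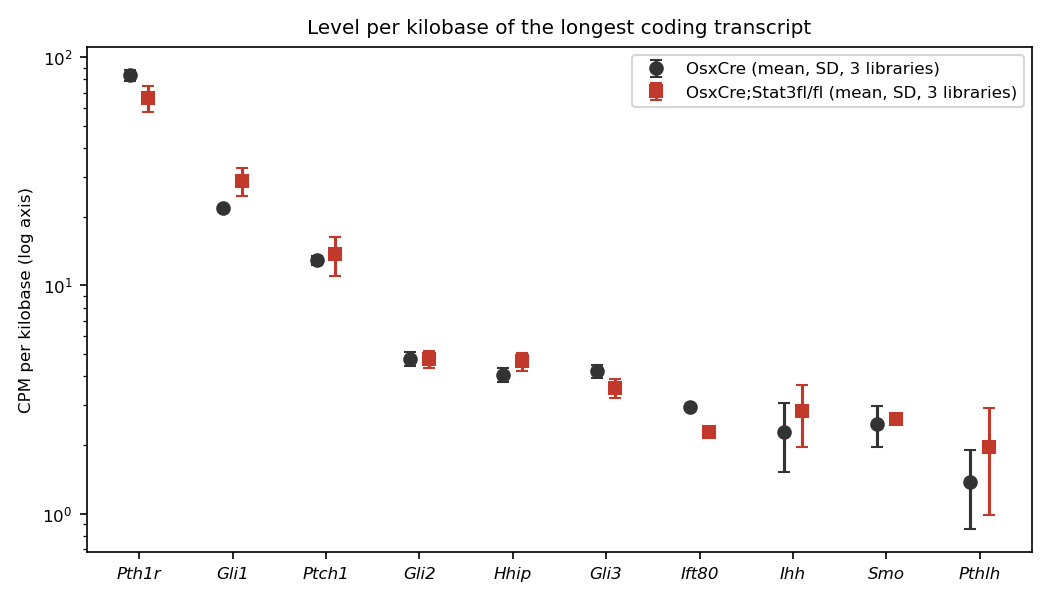
CPM per kilobase of the longest coding transcript on a log axis for the 10 genes, ordered by their mean over 6 libraries, with the mean and SD of 3 libraries for OsxCre (black circles) and OsxCre;Stat3fl/fl (red squares). Pth1r, Gli1 and Ptch1 stand above the other 7 genes, and the genotypes lie close to each other on this scale.

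Ihh encodes Indian hedgehog, the ligand of the skeleton. The gene lies at chr1:74945315-74951672 in GRCm38.p6, the build of all RefSeq positions given here. OsxCre libraries 1, 2 and 3 held 3.81, 5.55 and 7.55 CPM (40, 56 and 90 counts), and OsxCre;Stat3fl/fl libraries 1, 2 and 3 held 9.37, 5.52 and 5.96 CPM (78, 45 and 51 counts). The highest value was in OsxCre;Stat3fl/fl library 1 and the lowest in OsxCre library 1, and the groups overlapped. This gave a log2 fold change of 0.30 (SE 0.31, edgeR adjusted p = 0.695). The spread within genotypes (coefficient of variation 33.3% and 30.3%) was above the 12.7% and 13.1% that counting alone gives.

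Ihh is a product of prehypertrophic chondrocytes, and cartilage markers varied from library to library. Col10a1, the collagen of hypertrophic chondrocytes, was at 35.5, 39.4 and 114 CPM in OsxCre and 84.8, 50.1 and 79.3 CPM in OsxCre;Stat3fl/fl. Within each genotype the library with the most Ihh was also the one with the most Col10a1 (OsxCre 3 and OsxCre;Stat3fl/fl 1). Col2a1, the main collagen of cartilage, was at 1290, 1520 and 2290 CPM and at 2680, 2030 and 2460 CPM, and it was likewise highest in these libraries. The 15 chondrocyte markers, none of which was at 0, summed to 3550 to 5370 CPM and 4600 to 5990 CPM, and 12 of the 14 tested were higher in mean. Of these 14 markers, 1 was higher at an unadjusted edgeR p under 0.05, against 8.03% of all genes tested. In 0 of the 14 did the groups lie without overlap. Their part in the Ihh values was not tested.

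**Figure D3:**
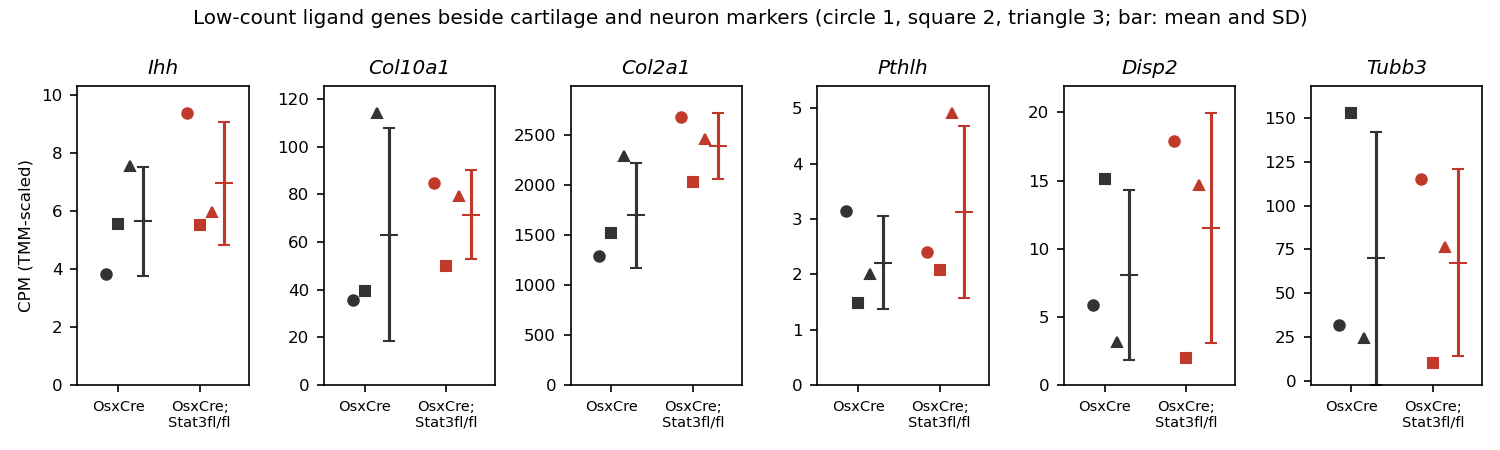
TMM-scaled CPM (linear axes) in each library of Ihh beside the cartilage collagens Col10a1 and Col2a1, of Pthlh, and of the hedgehog release gene Disp2 beside the neuron marker Tubb3, with circles, squares and triangles for libraries 1, 2 and 3 and bars for mean and SD. OsxCre 3 and OsxCre;Stat3fl/fl 1 are highest within their genotype for Ihh, Col10a1 and Col2a1, and OsxCre 2 and OsxCre;Stat3fl/fl 1 for Disp2 and Tubb3.

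Ptch1, Hhip and Smo overlapped between the genotypes. Ptch1 (chr13:63508328-63573460) encodes the receptor that holds Smoothened inactive and is itself switched on by the pathway. It was at 53.2, 55.5 and 58.0 CPM in OsxCre and at 55.6, 49.3 and 71.5 CPM in OsxCre;Stat3fl/fl. The highest and the lowest value were both in the OsxCre;Stat3fl/fl group, in libraries 3 and 2. The log2 fold change of 0.08 (SE 0.13, edgeR adjusted p = 0.821) turned to -0.08 without OsxCre;Stat3fl/fl library 3.

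Hhip (chr8:79965850-80058060) encodes a membrane protein that binds hedgehog ligands and limits their spread, and it too is a pathway target. Its values were 19.7, 19.0 and 17.1 CPM in OsxCre and 21.0, 19.5 and 23.4 CPM in OsxCre;Stat3fl/fl. Only OsxCre;Stat3fl/fl library 2 fell within the OsxCre range. Hhip thus had a log2 fold change of 0.20 (SE 0.12, edgeR adjusted p = 0.458).

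Smo (chr6:29735497-29761366) encodes Smoothened, the transducer. It was at 11.0, 7.24 and 9.57 CPM in OsxCre and at 9.61, 9.81 and 9.94 CPM in OsxCre;Stat3fl/fl. The OsxCre;Stat3fl/fl libraries lay together inside the OsxCre range. The log2 fold change was 0.08 (SE 0.18, edgeR adjusted p = 0.89), and it was -0.08 without OsxCre library 2.

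Of the Gli factors, Gli1 was higher in mean, Gli3 was lower in mean, and Gli2 lay at the same mean level. None of these differences passed the adjusted test. Gli1 (chr10:127329882-127341579) was at 79.4, 78.3 and 82.4 CPM in OsxCre and at 122, 95.4 and 97.7 CPM in OsxCre;Stat3fl/fl. The OsxCre libraries were close together and all OsxCre;Stat3fl/fl libraries lay above them, library 1 farthest. The means were 80.0 ± 2.13 and 105 ± 14.8 CPM (SD, n = 3 each), a fold of 1.31. On the log2 scale the change was 0.39 (SE 0.10), with an unadjusted edgeR p of 0.00575 and an adjusted p of 0.127. An exact permutation test, two-sided, gave p = 0.1, the smallest that 3 libraries against 3 allow.

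Gli3 (chr13:15463723-15730026) was at 33.5, 32.6 and 36.8 CPM in OsxCre and at 28.7, 26.5 and 31.9 CPM in OsxCre;Stat3fl/fl. The gap between the groups was narrow, from 31.9 to 32.6 CPM. The means were 34.3 ± 2.18 and 29.0 ± 2.74 CPM (SD, n = 3 each). On the log2 scale the change was -0.24 (SE 0.10), with an unadjusted edgeR p of 0.0486 and an adjusted p of 0.301. Gli2 (chr1:118834061-119054405), which acts mainly as an activator, was at 31.2, 29.7 and 34.0 CPM and at 33.5, 32.6 and 28.5 CPM, and its groups overlapped. Its log2 fold change was -0.01 (SE 0.10, edgeR adjusted p = 0.989), and the sign turned when OsxCre library 3 or OsxCre;Stat3fl/fl library 3 was left out.

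The ratio of Gli1 to Gli3 counts does not depend on the scaling of a library. It was 2.37, 2.4 and 2.24 in OsxCre and 4.25, 3.6 and 3.06 in OsxCre;Stat3fl/fl. All 3 OsxCre;Stat3fl/fl ratios lay above the OsxCre ratios. The ratio of Gli1 to Ptch1, both of them hedgehog targets, was 1.49, 1.41 and 1.42 and then 2.19, 1.94 and 1.37, and it overlapped between the genotypes. These ratios were formed with the values of the single genes known and are given as a description, with no test.

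Some reads could belong to neighbours, since the counting program and its handling of strand are not known here. Arhgap9 overlaps the end of Gli1 and was at 10.3 CPM in OsxCre and 8.45 CPM in OsxCre;Stat3fl/fl in mean, the opposite direction to Gli1. The long non-coding RNA Gm6556 overlaps the start of Gli3 and was at 3.35 and 3.16 CPM.

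The ligand of the PTHrP branch was near the limit of these libraries. Pthlh (chr6:147252109-147264013), which encodes PTHrP, held 33, 15 and 24 counts in OsxCre and 20, 17 and 42 counts in OsxCre;Stat3fl/fl, or 3.14, 1.49 and 2.01 CPM and 2.40, 2.08 and 4.91 CPM. OsxCre;Stat3fl/fl library 3 stood above the other 5 libraries, which overlapped. The lowest count of 15 has a 95% Poisson interval of 8.4 to 24.7. The log2 fold change was 0.50 (SE 0.42, edgeR adjusted p = 0.608), and between 0.02 and 0.84 when single libraries were left out.

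Pth1r (chr9:110722085-110747145) was the most highly counted of the 10 genes. OsxCre libraries 1, 2 and 3 held 181, 200 and 182 CPM and OsxCre;Stat3fl/fl libraries 171, 132 and 144 CPM. Every OsxCre;Stat3fl/fl library lay below every OsxCre library, with library 1 nearest to them. The means were 187 ± 10.5 and 149 ± 19.7 CPM (SD, n = 3 each). On the log2 scale the change was -0.33 (SE 0.11), with an unadjusted edgeR p of 0.0137 and an adjusted p of 0.176. The exact permutation test gave p = 0.1, the smallest possible. Pth1r belongs to a gene set that the study picked from these same libraries, as do Ift80, Ext1 and Hdac4, so their direction is not independent evidence.

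Pth1r is a gene of osteoblasts, and most osteoblast markers were also lower in mean in OsxCre;Stat3fl/fl, although their summed levels overlapped. Of the 10 markers, 8 were lower in mean, 3 of them at an unadjusted p under 0.05 (8.34% of all genes tested), and Bglap and Spp1 were higher in mean. Only Ibsp (bone sialoprotein), at an edgeR adjusted p of 0.0213, passed the adjusted test (0.481% of all genes tested were lower at that threshold). Ibsp and Sp7 belong to the gene set picked from these libraries as well. Alpl, the alkaline phosphatase of mineralizing cells, was at 278, 323 and 248 CPM and at 199, 189 and 194 CPM (edgeR adjusted p = 0.0578). The ratio of Pth1r to Alpl counts was 0.668 ± 0.0597 in OsxCre and 0.766 ± 0.0819 in OsxCre;Stat3fl/fl (SD, n = 3 each), and the groups overlapped. Ratios of Pth1r to Sp7 and to Col1a1 overlapped as well. The ratio to Ibsp did not, at 0.178, 0.188 and 0.195 in OsxCre and 0.279, 0.199 and 0.23 in OsxCre;Stat3fl/fl, so Pth1r was lower by less than Ibsp. These ratios are a description, with no test. In growth cartilage the receptor is also part of the loop with PTHrP. Of the 14 chondrocyte markers tested, 12 were higher and 2 lower in mean. The parts of the osteoblast and cartilage shares of the tissue in the Pth1r values were not tested.

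Pth1r has 3 start sites in the RefSeq promoter table (GRCm38.p6), and the 250 bases before each are shown because this receptor gene carried the largest count and the start sites differ in base composition. The windows, read on the minus strand, are chr9:110747146-110747395, chr9:110743687-110743936 and chr9:110742611-110742860. With the 50 bases after each start included, G and C made up 54.3%, 68.0% and 69.3%, and CpG occurred 5, 23 and 27 times. The median over all promoter windows was 52.7% G and C.
Pth1r upstream start: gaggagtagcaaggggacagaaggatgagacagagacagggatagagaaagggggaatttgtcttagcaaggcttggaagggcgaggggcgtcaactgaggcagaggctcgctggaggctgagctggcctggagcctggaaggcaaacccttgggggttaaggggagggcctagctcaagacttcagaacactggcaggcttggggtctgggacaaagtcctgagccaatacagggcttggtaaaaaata
Pth1r middle start: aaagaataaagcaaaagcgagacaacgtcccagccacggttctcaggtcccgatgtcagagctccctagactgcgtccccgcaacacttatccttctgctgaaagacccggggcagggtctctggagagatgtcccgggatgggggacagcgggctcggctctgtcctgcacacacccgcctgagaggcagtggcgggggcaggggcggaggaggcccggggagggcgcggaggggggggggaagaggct
Pth1r downstream start: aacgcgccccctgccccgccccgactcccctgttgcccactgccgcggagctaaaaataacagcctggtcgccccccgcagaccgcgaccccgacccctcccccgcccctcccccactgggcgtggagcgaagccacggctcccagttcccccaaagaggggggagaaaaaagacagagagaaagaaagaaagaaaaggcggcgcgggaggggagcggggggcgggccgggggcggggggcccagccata
The counts are summed over the gene, so the use of these start sites was not measured here.

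Windows from 250 bases before to 50 bases after the start were searched on both strands for 3 motifs. These were GACCNCCCA for Gli factors, TTCNNNGAA for STAT factors and TGACGTCA for CREB, the factor that cyclic AMP signalling from Pth1r acts on. The 8 genes with an entry had 10 windows, and Gli1 and Ift80 were not among them. The Gli motif was in none of the 10 windows and in 0.977% of all 32851 windows, and the STAT motif in none of the 10 and in 8.3% of all. The CREB motif was in 1 of the 10 windows, that of Hhip, and in 1.79% of all. The Hhip stretch is shown because it holds this match, in capitals, and that of Gli3 because it was the other gene with lower values that had an entry. They lie at chr8:80058009-80058258 (minus strand) and chr13:15463473-15463722 (plus strand).
Hhip: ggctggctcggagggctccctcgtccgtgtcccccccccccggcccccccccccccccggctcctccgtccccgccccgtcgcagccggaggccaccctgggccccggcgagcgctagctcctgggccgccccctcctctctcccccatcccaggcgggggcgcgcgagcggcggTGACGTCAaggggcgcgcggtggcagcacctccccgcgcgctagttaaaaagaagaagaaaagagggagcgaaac
Gli3: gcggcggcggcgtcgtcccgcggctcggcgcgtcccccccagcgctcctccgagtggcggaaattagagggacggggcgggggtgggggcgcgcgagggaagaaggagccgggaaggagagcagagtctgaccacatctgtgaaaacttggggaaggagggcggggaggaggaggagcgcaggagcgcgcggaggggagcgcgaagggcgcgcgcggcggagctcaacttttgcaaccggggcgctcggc
The match in Hhip starts at position -75 from the start site. A match is a description of these letters and not of binding, and the window without one says nothing of the factor.

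Ift80 had the least spread within genotypes. The gene (chr3:68892499-69004680) encodes a subunit of IFT-B, the complex that carries cargo toward the ciliary tip. It was at 11.9, 12.0 and 11.7 CPM in OsxCre and at 9.25, 9.07 and 9.36 CPM in OsxCre;Stat3fl/fl, from 121 to 140 counts and from 74 to 80 counts. The genotypes were well separated relative to the spread. The means were 11.9 ± 0.124 and 9.22 ± 0.144 CPM (SD, n = 3 each), a fold of 0.777. The coefficient of variation was 1.05% and 1.56%, below the 8.82% and 11.4% that counting alone gives at this depth, so the SD understates the error of these means. The log2 fold change was -0.36 with the larger standard error of the fit, 0.13 (unadjusted edgeR p of 0.0225, adjusted p of 0.215). The pseudogene Gm18588 lies within Ift80 and was at 4.58 and 5.52 CPM.

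The other IFT genes did not share one direction. Of 22 IFT-A and IFT-B genes tested besides Ift80, 9 were lower and 13 higher in mean, with a median log2 fold change of 0.08. At an unadjusted edgeR p under 0.05, 1 was lower and 2 were higher. Of all genes tested, 8.34% were lower and 8.03% higher at that threshold, so these counts are near the shares over all genes. The ratio of Ift80 to Ift88 counts, another IFT-B subunit, was 0.899, 0.712 and 0.8 in OsxCre and 0.575, 0.525 and 0.58 in OsxCre;Stat3fl/fl. All 3 OsxCre;Stat3fl/fl ratios were below the OsxCre ratios, and this comparison too is given as a description. Markers of multiciliated cells, which would bring many ciliary transcripts, summed to 16.6 to 24.8 CPM in OsxCre and 15.8 to 34.8 CPM in OsxCre;Stat3fl/fl, and 1 of the 10, Tmem212, had at most 3 counts in every library.

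**Figure D4:**
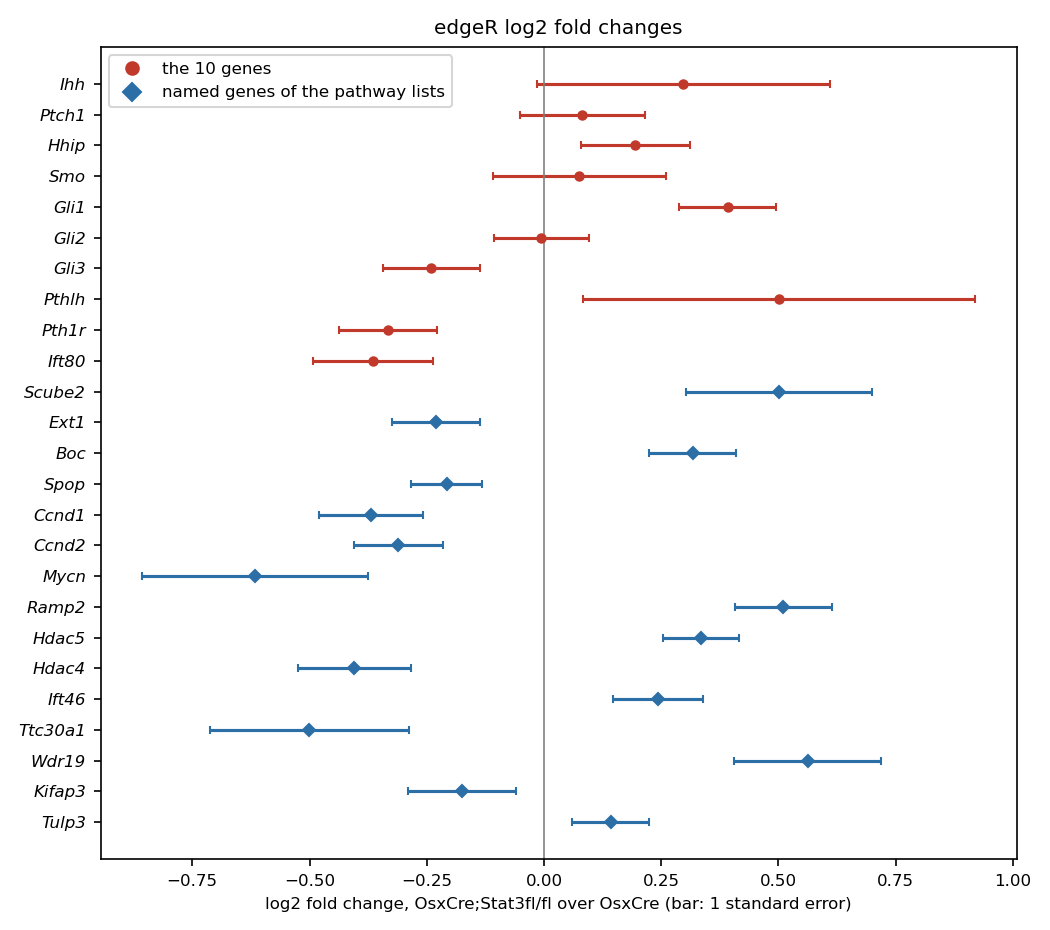
Log2 fold change of OsxCre;Stat3fl/fl over OsxCre from edgeR, with 1 standard error, for the 10 genes (red circles) and 15 other genes of the pathway lists named by rule (blue diamonds). Among the 10, Gli1 lies right of 0 and Gli3, Pth1r and Ift80 lie left of it by more than 2 standard errors.

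The lists of the pathways held 106 further genes, 98 of them tested. None of these passed the adjusted test (smallest edgeR adjusted p 0.0663). At an unadjusted p under 0.05, 7 were lower and 6 higher, and 47 were lower and 51 higher in mean. Their median log2 fold change was 0.02. Groups did not overlap for 10 in the lower and 9 in the higher direction. These counts are near the shares over all genes tested given above.

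Among ligand and release genes, 9 were tested besides Ihh, with a median log2 fold change of -0.05. Scube2, which helps to release lipid-bearing hedgehog from cells, was at 9.42, 8.13 and 6.63 CPM and at 9.73, 13.6 and 10.9 CPM (log2 fold change 0.50, SE 0.20, edgeR adjusted p = 0.267). Ext1, which builds the heparan sulfate that hedgehog spreads along, was at 101 CPM and 86.2 CPM in mean (-0.23, SE 0.09, edgeR adjusted p = 0.28), and its groups overlapped. The ligand gene Dhh was at 12.1, 11.8 and 12.1 CPM and at 16.0, 7.48 and 11.2 CPM, with both extremes in OsxCre;Stat3fl/fl. Shh had 0, 1 and 1 counts and 6, 0 and 3 counts and was not tested.

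Of the 8 reception genes besides Ptch1, Smo and Hhip, the median was 0.08. Boc, a co-receptor of hedgehog ligands, was at 103, 99.9 and 89.0 CPM and at 114, 134 and 115 CPM, without overlap (log2 fold change 0.32, SE 0.09, edgeR adjusted p = 0.152). The co-receptor Cdon was at 118 and 119 CPM in mean. Gas1, another co-receptor gene, was at 158 and 188 CPM in mean, with overlap.

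Of the 11 tested genes that carry the signal to Gli, other than the Gli genes, 7 were lower in mean, with a median of -0.06. Spop, an adaptor of the ubiquitin ligase that degrades Gli proteins, was at 202, 214 and 211 CPM and at 171, 193 and 180 CPM (log2 fold change -0.21, SE 0.08, edgeR adjusted p = 0.234). Its groups did not overlap.

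Of the 9 tested target genes other than Ptch1, Hhip, Gli1 and Pthlh, 6 were lower in mean, with a median of -0.13, and 3 of them had an unadjusted p under 0.05, against 8.34% of all genes tested. All 3 are also cell cycle or growth genes with many other inputs. Ccnd1 was at 155, 157 and 171 CPM and at 143, 125 and 107 CPM (log2 fold change -0.37, SE 0.11, edgeR adjusted p = 0.161). Ccnd2 was at 198 and 160 CPM in mean (-0.31, SE 0.09, edgeR adjusted p = 0.164), and Mycn, with 27 to 74 counts, at 6.14 and 3.99 CPM (-0.62, SE 0.24, edgeR adjusted p = 0.261). Groups did not overlap for any of the 3, as for 12.2% of all genes tested in the lower direction.

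Of the PTHrP list, 21 genes were tested besides Pthlh and Pth1r, with 9 lower and 12 higher in mean and a median of 0.03. Ramp2, which encodes an accessory protein of calcitonin-family receptors that also interacts with Pth1r, had the smallest p of all pathway genes. It was at 62.0, 51.2 and 54.6 CPM and at 73.9, 88.3 and 76.8 CPM, without overlap (log2 fold change 0.51, SE 0.10, edgeR adjusted p = 0.0663). Ramp2 is also an endothelial gene, and endothelial markers summed to 496 to 720 CPM and 620 to 724 CPM, with overlap. All 6 of 6 were higher in mean, with a median log2 fold change of 0.09. At an unadjusted edgeR p under 0.05, 1 of the 6 was higher, against 8.03% of all genes tested. The part of endothelial cells in the Ramp2 values was not tested.

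The class IIa histone deacetylases that PTH signalling acts on went opposite ways in mean. Hdac4 was at 39.2, 49.1 and 46.9 CPM and at 37.8, 30.3 and 34.0 CPM (log2 fold change -0.40, SE 0.12, edgeR adjusted p = 0.156). Hdac5 was at 112, 121 and 133 CPM and at 151, 154 and 156 CPM (0.34, SE 0.08, edgeR adjusted p = 0.103). Neither gene's groups overlapped, as for 12.2% of all genes tested in the lower and 10.8% in the higher direction. Both genes were named for a small unadjusted p. Gnas, which encodes the G protein subunit that links Pth1r to adenylyl cyclase, was at 157 and 179 CPM in mean with overlap. Pth itself had 0 counts in all 6 libraries, which allows up to 0.366 CPM per library before TMM scaling.

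Of the ciliary lists, Wdr19, an IFT-A subunit also known as IFT144, was at 10.3, 9.42 and 8.22 CPM and at 11.9, 14.6 and 14.7 CPM (log2 fold change 0.56, SE 0.16, edgeR adjusted p = 0.139). Ift46 of IFT-B was at 55.6 and 65.8 CPM in mean (0.24, SE 0.10, edgeR adjusted p = 0.266). Ttc30a1, also of IFT-B, had 40 to 48 counts in OsxCre and 23 to 26 counts in OsxCre;Stat3fl/fl (-0.50, SE 0.21, edgeR adjusted p = 0.296). Near-identical copies of Ttc30a1 could take some of its reads. No groups of these 3 genes overlapped, as for 12.2% of all genes tested in the lower and 10.8% in the higher direction. The 3 were named for a small unadjusted p, so this separation is not further evidence. The 8 motor genes had a median of 0.02 and the 11 tested BBSome and ciliary membrane genes a median of 0.03, with none at an unadjusted p under 0.05. Their genes of highest level per kilobase of the longest coding transcript were Kifap3, the adaptor of the kinesin-2 motor (64.6 and 57.2 CPM), and Tulp3, which carries receptors into the cilium (40.4 and 44.6 CPM). Bbip1 has no coding length here, and per kilobase of exon union it, Inpp5e and Bbs4 (12.6, 8.5 and 7.68 CPM per kilobase) were above Tulp3 (6.34).

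**Figure D5:**
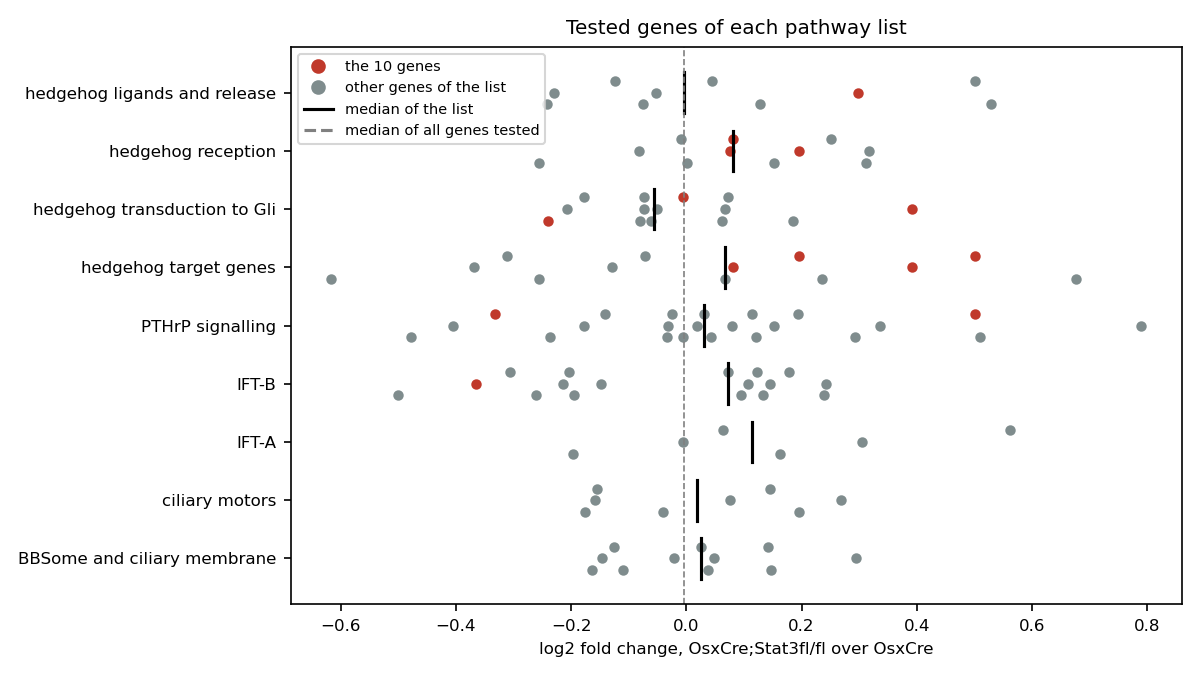
Log2 fold change of each tested gene of the 9 pathway lists (points, spread vertically only for legibility), with the 10 genes in red, the median of each list as a black line and the median of all genes tested as a dashed line. Every list holds genes on both sides of 0, and the list medians lie between -0.06 and 0.11.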

How the data were processed

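The 10 genes and the pathway and marker lists were chosen with earlier results of these data known. Per the labels, RNA was extracted with TRIzol and libraries were made with a TruSeq kit. The authors deposited whole-number read counts per gene symbol for each library, without normalization. The submitters' processing notes name HISAT2 and GRCm38, whereas the study's methods name TopHat, mm9 and Cufflinks; the counting program and its annotation are not given in the sources used here.

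Low counts were removed by filterByExpr (at least 10 counts, and 15 in total; 15600 of 44556 genes kept), and libraries were scaled by TMM (factors 0.932 to 1.04). All 6 libraries were fitted with edgeR 4.0.16 (R 4.3.3, quasi-likelihood test, two-sided, Benjamini-Hochberg over all genes tested). The study's own test was Cuffdiff, which needs other input. The fit was tested on simulated counts. Single genes were compared by an exact permutation test, two-sided, with scipy 1.17.1. The common biological coefficient of variation was 0.167.

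Named beside the 10 genes and Stat3 were, for each pathway list, at most 4 genes with the smallest unadjusted p under 0.05 or, failing these, the gene with the highest CPM per kilobase. Others named (Dhh, Shh, Cdon, Gas1, Gnas, Pth, Disp2, Ift88, Ift172, Ift81, Bbip1, Inpp5e, Bbs4, neighbours and markers) were chosen after their values were seen. Transcript lengths came from GENCODE for NCBIM37 (mm9), used only as a scale. Positions and promoter stretches came from RefSeq (GRCm38.p6), and 31881 of the symbols matched. Libraries of 1 genotype were not duplicates (chi-square per degree of freedom 7.51 to 15.6). Alternatives were other scalings, other filters, DESeq2 1.42.0, limma-voom (limma 3.58.1), the replicate number as a block, leaving out each library and, added after seeing the data, the neuron and glia level as a covariate.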

Additional observations from a re-analysis of the deposited data

How the results depend on the processing

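Without scaling for library size, which shifts the median of all genes to -0.38 on the log2 scale, 5572 genes in place of 196 passed the adjusted test. Of the 10 genes, 3 then passed, Gli3 at -0.62, Pth1r at -0.71 and Ift80 at -0.74 (edgeR adjusted p 0.0187, 0.0107 and 0.014), 0 were higher at an unadjusted p, and Ihh (-0.10), Ptch1 (-0.29), Smo (-0.31) and Hhip (-0.18) turned sign. Of the other pathway genes, 36 passed, with 48 lower and 0 higher at an unadjusted p. Of the 15 named among them, Boc, Hdac5, Ift46 and Tulp3 turned sign. Gli2 was at 0.0021 with TMM factors computed without the muscle list. Genes passing numbered 428 without a filter, 556 by DESeq2's Wald test and 122 with the neuron and glia covariate, and pathway genes passing 1 (Ramp2) without a filter and 2 (Ramp2 and Hdac5) by DESeq2. Of the 10 genes, 1 was lower at an unadjusted p by DESeq2 and 0 with the covariate, in place of 3. Pathway genes lower numbered 11 with library totals and 4 by DESeq2, in place of 7, and 10 were higher with the covariate in place of 6.

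Leaving out 1 library left 12 (without OsxCre;Stat3fl/fl 3) to 103 genes passing, 1 to 3 of the 10 genes lower and 3 to 7 pathway genes lower at an unadjusted p. Log2 fold changes ranged from -0.0827 to 0.201 for Ptch1, -0.0767 to 0.222 for Smo and -0.0513 to 0.0632 for Gli2. Over 16 settings with scaling, the range was 0.27 to 0.49 for Gli1 (unadjusted p under 0.05 in 16), -0.44 to -0.21 for Pth1r (15), -0.41 to -0.35 for Ift80 (9) and -0.31 to -0.17 for Gli3 (6). None of the 10 passed the adjusted test in these.

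Libraries with the same replicate number did not deviate alike from their genotype means (correlations of deviations -0.518 to -0.085). The study calls the controls littermates, and these correlations cannot show whether libraries shared a litter. With the replicate block 1 gene passed in place of 196, and 0 of the 10 genes, of which 2 were lower and 1 higher at an unadjusted p. Depth limits Pthlh and Ihh most, since their lowest counts were 15 and 40.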

Other observations

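Disp2, a homologue of the gene that releases hedgehog ligand, varied more between libraries than between genotypes, with 5.90, 15.1 and 3.19 CPM in OsxCre and 17.9, 1.96 and 14.7 CPM in OsxCre;Stat3fl/fl. The neuron marker Tubb3 was at 32.0, 153 and 24.4 CPM and at 115, 9.93 and 76.5 CPM. Both genes had the same order of libraries within each genotype, and the part of neural tissue in the Disp2 values was not tested. The 10 neuron and glia markers summed to 469 to 685 CPM and 199 to 532 CPM.

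The few Shh counts, 6, 0 and 3 in OsxCre;Stat3fl/fl and 0, 1 and 1 in OsxCre, fell mainly in the 2 libraries with the most Krt15, a keratin of basal epidermis and hair follicle (4.56 and 5.03 CPM, against 0.587 to 0.991 CPM in the other 4 libraries). Of the other keratinocyte markers, Krt5, Krt14 and Trp63 were also highest in CPM in these 2 libraries. Only Krt5 stood clear, with 24 and 21 counts against 0 to 8 in the other 4 libraries. Krt14 had 14 and 7 counts against 0 to 8, and Trp63 had 4 and 3 counts against 1 to 3. Krt10, Krt1, Krt17 and Lor were highest in OsxCre library 1, and Krtdap in OsxCre;Stat3fl/fl library 2. The keratinocyte list summed to 13.1 to 18.7 CPM in OsxCre;Stat3fl/fl and 9.9 to 16.2 CPM in OsxCre. Its marker Dsg3 had at most 3 counts in every library. The part of skin in the Shh counts was not tested.

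The ratios of Ift80 to Ift88, Ift172 and Ift81 counts did not overlap between genotypes. For Ift172 they were 0.246, 0.223 and 0.258 in OsxCre and 0.19, 0.22 and 0.217 in OsxCre;Stat3fl/fl. For Ift81 they were 0.604, 0.684 and 0.553 and then 0.494, 0.365 and 0.465. These pairs were chosen with the values known and no test was made. All 3 ratios share the Ift80 counts, so they are not independent of each other. Of the 16 other IFT-B genes tested, 3 were also lower without overlap and 1 was higher, against 12.2% and 10.8% of all genes tested. Ratios of Ift80 to those 3 lower genes were not formed.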
